A study of Mus musculus with 2 samples.

Results

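Extraembryonic ectoderm (ExE) nuclei were examined in a single-nucleus multiome of mouse embryos at embryonic day 7.0, in which nuclear RNA and open chromatin were read from the same droplet. Of 15341 deposited barcodes, 11605 held 3000 to 30000 RNA UMIs (unique molecular identifiers, 1 per captured RNA molecule) and at least 2000 peak counts. Each of these was scored from RNA: the mean over Esrrb, Duox2, Nat8l, Htra1, Nr0b1, Sox21 and Elf5, minus the mean over Ascl2, Gjb5 and Plac1, of the natural log of 1 plus UMIs per 10000. The 700 highest scores, 6.03% of the barcodes in range, are the ExE nuclei, and the remaining 10905 are called the other nuclei. The score ran from 0.51 to 1.40 in ExE nuclei. No gap lay at the threshold: ranks 698, 699 and 700 scored 0.5098, 0.5093 and 0.5075, and ranks 701, 702 and 703 scored 0.5071, 0.5069 and 0.5056.

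Per the labels, the embryos were pooled before nuclei were isolated, and the series has 1 RNA library and 1 accessibility library. There was therefore no replicate and no treatment or genotype contrast, and no test was made. The labels disagree with each other: E7.0 embryos stand in the title, age and protocol, but entries for tissue, cell type and strain describe goblet cells of the adult gut in a mucin reporter line. The ExE nuclei carried 10231336 UMIs and an estimated 7002399 accessible fragments, and the other nuclei carried 134069747 UMIs and 118391680 fragments. Intervals in parentheses are exact 95% intervals that cover counting error only. Since the nuclei were selected on their RNA values for the 10 score genes, RNA values below are descriptions, while accessibility was used by the rule only through the depth minimum.

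The extraembryonic ectoderm is the trophoblast tissue that caps the epiblast on its proximal side. It holds the embryonic counterpart of trophoblast stem cells, which epiblast FGF keeps undifferentiated, and it sends BMP signals and proprotein convertases back to the epiblast. Cells on its outer side feed the ectoplacental cone, from which spongiotrophoblast and giant cells derive, and cells on its inner side form the chorion, which later contributes to the labyrinth.

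For comparison, 3 sets were taken from the other nuclei by mean log marker RNA. The ectoplacental cone set was the 150 nuclei highest for Ascl2, Gjb5 and Plac1 minus the 7 genes added in the score. The visceral endoderm set was the 1000 highest for 8 visceral endoderm markers. The epiblast set was the 2000 highest for 8 epiblast markers minus the visceral endoderm markers. Levels of added and subtracted genes in these sets therefore follow in part from the choice. The median depth was 13890.5 UMIs in ExE nuclei, 11210 in the other nuclei and 11226 in the epiblast set. Scrublet, which scores nuclei for resemblance to simulated doublets, called 6.71% of ExE nuclei (4.98 to 8.83) and 6.20% of the others (5.75 to 6.67), and called nuclei were kept.

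Promoter sequences of genes whose start regions were more accessible in ExE than in the other nuclei are shown first, because chromatin was not used to choose the nuclei. Each is the 250 bases upstream of a RefSeq start (GRCm38.p6), 5′ to 3′ on the gene's strand, and capitals mark matches to the motifs described with the accessibility results. Elf5 encodes an ETS factor that maintains trophoblast identity, and its 2 RefSeq starts lie at chr2:103423818-103424067 (downstream start, plus strand) and chr2:103411848-103412097 (upstream start, plus strand). Zfp42 (Rex1), a zinc finger protein of stem cells, has its sequence at chr8:43307010-43307259 on the minus strand. Bmp4, the BMP ligand signalled to the epiblast, has it at chr14:46390670-46390919 on the minus strand. Dnmt3l, a catalytically inactive partner of the de novo DNA methyltransferases, is shown for its middle RefSeq start at chr10:78049592-78049841 on the plus strand. Cldn4, a tight junction claudin, is at chr5:134946935-134947184 on the minus strand, and Duox2, an oxidase that makes hydrogen peroxide, at chr2:122298228-122298477 on the minus strand.
Elf5 downstream start: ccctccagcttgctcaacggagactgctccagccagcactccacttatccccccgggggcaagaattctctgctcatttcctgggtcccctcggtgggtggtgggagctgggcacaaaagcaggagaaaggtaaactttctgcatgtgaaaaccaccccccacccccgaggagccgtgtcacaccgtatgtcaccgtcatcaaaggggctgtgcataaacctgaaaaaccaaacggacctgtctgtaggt
Elf5 upstream start: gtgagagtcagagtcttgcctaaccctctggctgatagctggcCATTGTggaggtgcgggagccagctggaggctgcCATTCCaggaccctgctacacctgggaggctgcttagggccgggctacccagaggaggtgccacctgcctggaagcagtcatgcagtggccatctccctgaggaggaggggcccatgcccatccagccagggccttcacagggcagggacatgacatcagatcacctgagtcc
Zfp42: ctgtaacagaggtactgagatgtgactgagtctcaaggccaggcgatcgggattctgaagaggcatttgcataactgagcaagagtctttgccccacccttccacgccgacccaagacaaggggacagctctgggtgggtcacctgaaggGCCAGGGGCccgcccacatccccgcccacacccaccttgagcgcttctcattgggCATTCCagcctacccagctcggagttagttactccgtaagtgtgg
Bmp4: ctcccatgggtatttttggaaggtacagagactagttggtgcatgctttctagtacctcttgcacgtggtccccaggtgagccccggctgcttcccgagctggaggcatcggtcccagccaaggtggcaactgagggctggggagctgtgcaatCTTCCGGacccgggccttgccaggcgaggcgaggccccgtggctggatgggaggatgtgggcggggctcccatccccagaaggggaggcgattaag
Dnmt3l middle start: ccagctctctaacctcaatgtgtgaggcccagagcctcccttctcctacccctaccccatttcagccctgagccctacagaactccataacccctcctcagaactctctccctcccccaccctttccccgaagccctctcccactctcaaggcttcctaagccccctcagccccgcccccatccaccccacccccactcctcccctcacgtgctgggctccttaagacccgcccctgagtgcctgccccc
Cldn4: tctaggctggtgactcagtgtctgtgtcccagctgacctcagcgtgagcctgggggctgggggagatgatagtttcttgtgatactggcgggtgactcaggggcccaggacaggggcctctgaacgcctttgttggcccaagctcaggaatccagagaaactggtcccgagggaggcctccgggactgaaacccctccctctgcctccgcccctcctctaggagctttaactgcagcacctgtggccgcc
Duox2: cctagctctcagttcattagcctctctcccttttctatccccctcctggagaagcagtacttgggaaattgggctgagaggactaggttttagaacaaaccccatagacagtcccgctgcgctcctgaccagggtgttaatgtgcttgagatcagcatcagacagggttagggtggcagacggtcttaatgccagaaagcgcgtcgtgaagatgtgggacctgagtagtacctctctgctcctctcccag

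Detection of the 7 genes added in the score is described here for the ExE nuclei, and the choice of nuclei by these genes favours it. A median of 6 of the 7 had a UMI per ExE nucleus, against 0 in the other nuclei, and all 7 were present in 172 ExE nuclei (24.6%) and 18 others. At least 5 were present in 83.1% of ExE nuclei and 2.08% of others. Htra1, a secreted serine protease, had a median of 4 UMIs per ExE nucleus (quartiles 2 and 6). Elf5 had a median of 3 (1 and 5) and Esrrb, an orphan nuclear receptor of stem cell self-renewal, a median of 3 (1 and 4.25). Nat8l, which makes N-acetylaspartate, had a median of 2 (1 and 4). Duox2, Nr0b1 (the orphan nuclear receptor Dax1) and Sox21 (a SoxB2 factor) each had a median of 1, and Sox21 had no UMI in the largest share of nuclei, being present in 60.6%.

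Summed over nuclei and given as UMIs per 1000000 (CPM), these genes were 11.5 to 28.3 times as high in ExE nuclei as in the others, as the choice of nuclei requires. Duox2 was at 92.7 CPM against 3.27 CPM (ratio 28.3; 25.2 to 31.8) and Esrrb at 227 CPM against 10.3 CPM (21.9; 20.5 to 23.5). Elf5 had the smallest ratio, at 233 CPM against 20.3 CPM (11.5; 10.9 to 12.1). The ectoplacental cone set was chosen in part for low values of these 7 genes. Elf5 had the highest level of the 7 there, at 84.2 CPM, where Esrrb was at 3.06 CPM and Nat8l at 3.06 CPM. Of the subtracted genes, Plac1 was at 2.44 CPM in ExE nuclei and 539 CPM in the ectoplacental cone set, and Ascl2, a bHLH factor of the cone, at 4.59 CPM and 233 CPM. Gjb5, a gap junction gene, was still at 41.1 CPM in ExE nuclei, above the 18.0 CPM of the other nuclei, and reached 277 CPM in the cone set.

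A share of the other nuclei lay close to the ExE nuclei, as the accessibility clusters below show. Without the 871 other nuclei in those clusters, the Esrrb level of the remaining others was 3.86 CPM and the ratio 58.6, and the ratios of Elf5 and Bmp4 were 23.9 and 13.6. The Esrrb and Elf5 ratios moved by over 1.5 times with which nuclei were counted among the others, and the Bmp4 ratio by less. Of the 28 listed genes outside the score that were at least 2-fold higher, all 28 had larger ratios against the remaining others, and 12 moved by over 1.5 times. Among these, Duoxa2 reached a ratio of 30.5, Wnt7b 25.9, Zfp42 19.4, Ahnak 18.8, Dnmt3l 15.2, Pcsk6 14.2, Tfap2c 13.1, Cldn4 13.04, Rhox9 12.9, Bmp8b 9.59 and Gata3 9.17. Among the listed genes reported here, Hand1, Cebpb, Cdkn1c and Gata1 passed 2-fold higher against the remaining others but not against all others, at 2.05, 2.74, 2.10 and 2.37.

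**Figure D1:**
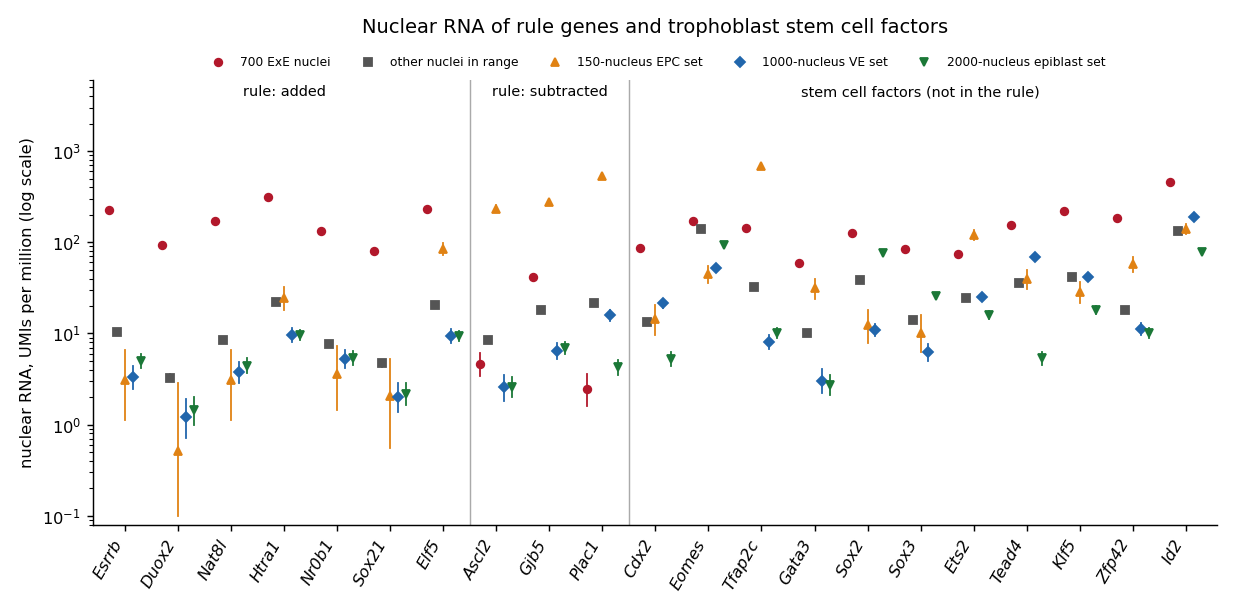
Nuclear RNA in UMIs per 1000000 (log axis) of the 10 score genes and 11 of the 14 trophoblast stem cell factors. Points are sums over each set of nuclei and lines exact 95% counting intervals. Sall4, Gata2 and Tfap2a, with ratios of 0.529, 0.703 and 0.870 over the other nuclei, are not drawn. The 7 added genes are highest in the 700 ExE nuclei, the 3 subtracted genes, Tfap2c and Ets2 are highest in the ectoplacental cone set, and Eomes differs little between ExE and other nuclei (172 and 141 CPM).

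Among 14335 genes outside the score with at least 200 UMIs, 788 (5.50%) were at least 2-fold higher in ExE nuclei and 2971 (20.7%) at least 2-fold lower. These shares are the background for the counts of listed genes below. The median ratio over these genes was 0.903 (log2 -0.15), so ratios are shifted down by that much. Against the ectoplacental cone set, 484 of 7943 genes (6.09%) were at least 2-fold higher in ExE nuclei and 230 (2.90%) at least 2-fold lower.

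Trophoblast stem cell factors that the score did not use were checked against the label. Of 14, 10 were at least 2-fold higher in ExE nuclei, none at least 2-fold lower and 4 between, with a median log2 ratio of 1.97. Zfp42 had the largest ratio, at 183 CPM against 18.1 CPM (10.1; 9.48 to 10.7). Cdx2, the caudal homeobox factor that sets trophoblast fate, was at 87.2 CPM against 13.3 CPM (6.54; 6.03 to 7.10). Gata3 was 5.85-fold higher (5.31 to 6.44) and Klf5, a Krüppel-like factor of early trophoblast, 5.38-fold (5.12 to 5.65). Sox3 was 6.09-fold higher (5.61 to 6.60), and its partner in the SoxB1 family, Sox2, was 3.26-fold higher (3.07 to 3.47) while also present in the epiblast set at 76.6 CPM. Tead4, the YAP-responsive factor upstream of Cdx2, was 4.35-fold higher (4.11 to 4.61), Id2, an inhibitor of bHLH factors, 3.50-fold (3.39 to 3.62) and Ets2 3.07-fold (2.83 to 3.32). Ets2 was lower in ExE nuclei than in the cone set, at 74.97 CPM against 120.4 CPM (0.622; 0.537 to 0.723).

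The 4 factors between the limits were Eomes, Sall4, Tfap2a and Gata2. Eomes, a T-box factor of trophoblast and of the primitive streak, was at 172 CPM in ExE nuclei and 141 CPM in the others (1.22; 1.16 to 1.28), and at 44.4 CPM in the ectoplacental cone set. Sall4 had the smallest ratio of the list, 0.529 (0.502 to 0.557), with 292 CPM in the epiblast set. Tfap2a and Gata2 were low, at 1.56 CPM and 6.45 CPM in ExE nuclei, and Gata2 reached 121 CPM in the cone set. Tfap2c, an AP-2 factor, was 4.43-fold higher in ExE nuclei than in the others, yet its level of 145 CPM was below the 682 CPM of the cone set.

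After each nucleus was thinned to 3000 UMIs, Esrrb had a UMI in 48.0% of ExE nuclei, 2.60% of others and 1.55% of the epiblast set, compared with 91.0% and 7.22% of ExE and other nuclei before thinning. Zfp42 had one in 42.3%, 4.41% and 2.60% after thinning, and in 84.9% and 13.7% before. Shares at this depth were lower than before thinning, so they are given beside CPM.

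Genes of the exchange with the epiblast divided by direction. Of 17, 5 were at least 2-fold higher, 5 at least 2-fold lower and 7 between. The higher ones were the signals Bmp4, Bmp8b and Wnt7b, the processing enzyme Pcsk6 and the FGF receptor Fgfr2. Bmp4 was at 213 CPM against 22.2 CPM (9.56; 9.04 to 10.1), with 14.8 CPM in the ectoplacental cone set and 8.50 CPM in the epiblast set. Wnt7b was 8.84-fold higher (8.14 to 9.60), Pcsk6, the convertase PACE4 that cleaves Nodal precursor, 8.45-fold (7.97 to 8.96) and Bmp8b 6.13-fold (5.64 to 6.65). Furin, the second convertase listed, was at 20.3 CPM against 24.8 CPM and was highest in the visceral endoderm set, at 55.0 CPM.

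Fgfr2, a receptor for epiblast FGF, was at 620 CPM in ExE nuclei, 264 CPM in the others (2.35; 2.29 to 2.41) and 195 CPM in the cone set. The FGF pathway response genes Dusp6, Etv4 and Spry4 had ratios of 0.999, 1.23 and 1.07 over the other nuclei. Spry2 and Etv5 were at 0.580 and 0.651. Over the cone set each of these response genes was higher in ExE nuclei. Those ratios ran from 2.498 for Spry2 (1.66 to 3.92) to 5.02 for Etv4 (3.01 to 9.05). The 5 genes at least 2-fold lower than in the other nuclei were epiblast ligands and cofactors. Fgf4, the ligand that maintains trophoblast stem cells, had 3 UMIs in all ExE nuclei (ratio 0.0925; 0.0190 to 0.272). Fgf5 had a ratio of 0.164 (0.144 to 0.185), Wnt3 0.188 (0.147 to 0.236), the Nodal coreceptor gene Tdgf1 0.210 (0.189 to 0.233) and Nodal 0.216 (0.166 to 0.278).

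Ectoplacental cone and giant cell genes differed in level between the ExE nuclei and the cone set. Of the listed genes outside the score that passed the UMI minimum and are reported here, 2 were at least 2-fold lower in ExE nuclei than in the others (Prl3d1 and Flt1) and 2 between (Hand1 and Phlda2). Phlda2, an imprinted growth restrictor, was at 230 CPM in ExE nuclei and 1434 CPM in the cone set. Hand1, a bHLH factor of giant cells, was at 28.1 CPM and 75.5 CPM, and the placental lactogen Prl3d1 at 3.71 CPM and 191 CPM. Flt1, a VEGF receptor gene, was higher in ExE nuclei than in the cone set, at 29.03 CPM against 15.3 CPM (1.90; 1.30 to 2.86). The Prl3d1 ratio over the others was 0.369, and it became 1.19 (0.826 to 1.66) without the 871 others in clusters A, B and C, so that call rested on them. Tpbpa, the spongiotrophoblast marker, had no UMI in ExE nuclei, and 3 UMIs, taken as the limit for a count of 0, would be 0.29 CPM.

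Genes of the later chorion and syncytiotrophoblast were near the other nuclei or barely detected: 4 of 9 passed the minimum and none of these was 2-fold apart in either direction. Gcm1, the factor that starts labyrinth branching, had 13 UMIs (1.27 CPM), and the syncytin genes Syna and Synb had none. Among the 4, Cebpb had the largest ratio, 1.93 (1.72 to 2.15), which became 2.13 and passed 2-fold when divided by the median ratio of all genes compared, and Ly6e the smallest, 0.791 (0.694 to 0.898).

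Partners of the enzymes Duox2 and Nat8l were listed because both enzymes scored so high. Duoxa2, the maturation factor Duox2 needs, was at 62.4 CPM against 3.95 CPM (15.8; 14.04 to 17.7). Duox1, the sister oxidase, was at 3.42 CPM against 4.997 CPM, and Nox4 was lower, at 1.95 CPM against 17.8 CPM (0.110; 0.0670 to 0.170). Of the ligases that join N-acetylaspartate to glutamate, Rimkla was at 4.398 CPM against 1.63 CPM and Rimklb at 12.4 CPM against 49.9 CPM. Aspa, which breaks N-acetylaspartate down, had 19 UMIs (1.86 CPM). In all, 2 of the 6 partners that passed the minimum were at least 2-fold higher and 2 at least 2-fold lower. Over all genes compared these shares were 5.50% and 20.7%.

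Of 8 DNA methylation genes, 1 was at least 2-fold higher and 2 lower, where 5.50% and 20.7% of all genes compared were. Dnmt3l was at 89.4 CPM against 12.3 CPM (7.26; 6.69 to 7.88), while the de novo methyltransferase Dnmt3a was at 27.3 CPM against 93.7 CPM (0.291; 0.258 to 0.328) and the dioxygenase Tet3 at a ratio of 0.474 (0.423 to 0.529), or 0.524 and no longer 2-fold lower after division by the median ratio. Dnmt3b was abundant, at 685 CPM in ExE nuclei and 1544 CPM in the epiblast set. The maintenance genes Dnmt1 and Uhrf1 had ratios of 1.29 and 1.36.

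Of 10 genes with imprinted expression in extraembryonic tissue, 3 were at least 2-fold higher and none lower. Sfmbt2, a Polycomb-related gene, was at 1403 CPM against 360 CPM (3.89; 3.82 to 3.96) and at 1432 CPM in the cone set. Slc38a4, an amino acid transporter, was 2.60-fold higher (2.46 to 2.76) and Peg10, a retrotransposon-derived gene, 2.09-fold (2.02 to 2.16). Both were lower in ExE nuclei than in the cone set, Slc38a4 at 135 CPM against 256 CPM (ratio 0.527; 0.476 to 0.585) and Peg10 at 379 CPM against 717 CPM (0.528; 0.497 to 0.562). All 3 Rhox homeobox genes that passed the minimum were higher, with Rhox5 at 1501 CPM against 270.5 CPM (5.55; 5.45 to 5.66), Rhox9 at 16.5 CPM and Rhox6 at 19.8 CPM. Rhox6 was at 42.4 CPM in the cone set, above the ExE nuclei (ratio 0.468; 0.361 to 0.612). Reads of such gene families can be split between near-identical copies, so single Rhox values are uncertain.

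Among epithelial genes, Cldn4 was at 59.1 CPM against 11.2 CPM (5.29; 4.81 to 5.82) and Krt7 at 4.01 CPM against 9.97 CPM (0.402; 0.287 to 0.548). In the cone set Cldn4 was at 75.01 CPM, and the ratio of ExE nuclei to it was 0.788 (0.657 to 0.951). The other 6, among them the E-cadherin gene Cdh1 and Epcam, had ratios of 1.08 to 1.85, of which Epcam alone passed 2-fold after division by the median ratio, at 2.05. Krt8 and Krt18, simple epithelial keratins, were at 176 CPM and 251 CPM in ExE nuclei but 870 CPM and 852 CPM in the cone set.

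Outside the lists, the 14 highest ratios among genes with a UMI in at least 10% of thinned ExE nuclei ran from 7.82 to 16.8. They were Ccdc3, Dppa4, Itga7, Plut, Zfp382, Prss50, Nexmif, Inpp1, Dppa2, Rbm20, Cldn3, Casz1, Tinagl1 and Wnt6. Ccdc3 was at 45.4 CPM against 2.70 CPM (16.8; 14.6 to 19.3). Dppa4 and Dppa2, neighbouring genes whose SAP domain proteins form a complex at promoters of early embryos, were at 142 CPM against 10.4 CPM (13.7; 12.7 to 14.7) and 32.6 CPM against 3.30 CPM (9.88; 8.55 to 11.4). Itga7, a laminin-binding integrin, was 13.0-fold higher (11.7 to 14.4). Rbm20, a splicing factor best known from heart, was at 394 CPM (9.87-fold; 9.47 to 10.3), and Nexmif, an X-linked gene known from neurons, at 309 CPM (10.2-fold; 9.76 to 10.7). Wnt6 was 7.82-fold higher (7.15 to 8.56) than in the other nuclei, but its 75.6 CPM was close to the 55.6 CPM of the ectoplacental cone set. Over the cone set the 14 ratios ran from 1.36 for Wnt6 (1.11 to 1.68) to 88.9 for Ccdc3 (15.9 to 3518). Casz1 had the next lowest, 1.94 (1.68 to 2.27), and Ccdc3 had 1 UMI in the cone set. Without the 871 others in clusters A, B and C the 14 ratios over the remaining others ran from 12.7 to 54.3. Itga7 was at 54.3, above Ccdc3 at 40.4, Nexmif at 27.7 and Wnt6 at 21.5. Those clusters also held 87.3% of the cone set. Plut is a long noncoding RNA gene, and reads of overlapping genes cannot be told apart without strand.

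The 10 lowest ratios, among genes with at least 1000 UMIs in range, ran from 0.0251 to 0.0471 and belonged to Ntrk3, Bmp5, Ttc6, Kcnj3, Kis2, Cdh8, Zfhx4, Unc5c, Scml2 and Abca4. Kcnj3, a potassium channel gene, was at 4.50 CPM against 108.5 CPM and at 235 CPM in the epiblast set. Unc5c, a netrin receptor gene, was at 4.01 CPM in ExE nuclei and 113 CPM in the ectoplacental cone set.

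Markers of other cell types were also read in ExE nuclei. All 8 visceral endoderm markers were at least 2-fold lower, and their summed level was 696 CPM in ExE nuclei, 3427 CPM in the others and 16226.5 CPM in the visceral endoderm set. The same sum was 762 CPM in the cone set and 425 CPM in the epiblast set. Per nucleus, its median was 573 CPM in ExE nuclei and 697 CPM in the others, a smaller difference than between the summed levels. The epiblast set was chosen in part for low values of these markers, so its levels of them are no neutral baseline. Apoa1, for instance, was at 184 CPM in ExE nuclei, 203 CPM in the cone set and 128 CPM in the epiblast set, levels of the same order in these 3 sets. Of 8 epiblast markers 6 were at least 2-fold lower, 1 between and 1 higher, with a sum of 654 CPM against 953 CPM in the others and 2023 CPM in the epiblast set. The exception was Utf1, a chromatin protein of pluripotent cells, at 277 CPM in ExE nuclei and 243 CPM in the epiblast set.

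Embryonic mesoderm markers summed to 116 CPM against 663.5 CPM, with 5 of 6 at least 2-fold lower, and parietal endoderm markers to 178 CPM against 528.5 CPM, with 5 of 6 tested lower. Blood and endothelial markers were lower for 5 of 6 (61.0 CPM against 135 CPM), among them Runx1 at a ratio of 0.463, which became 0.512 after division by the median ratio. Extraembryonic mesoderm markers were lower for 3 of 4 tested, while Ahnak, which that list also held, was at 241 CPM against 33.6 CPM (7.16; 6.82 to 7.53). With Ahnak, that list summed to 248 CPM against 49.5 CPM. Markers of maternal decidua summed to 3.62 CPM, and immune markers to 1.47 CPM with Ptprc, C1qa and Tyrobp at 0. The part that RNA of other cells had in the ratios was not tested.

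Chromatin was then compared at promoters, defined as peaks within 1000 bp of the lowest or highest start the files list for a gene. Of 19849 promoters with at least 200 fragments, 500 (2.52%) were at least 2-fold more accessible in ExE nuclei and 3004 (15.1%) at least 2-fold less, with a median ratio of 0.988. Promoters of the 7 genes added in the score were together 2.34-fold more accessible (2.23 to 2.46), and 4 of the 7 passed 2-fold. Elf5 led at 45.7 fragments per 1000000 (FPM) against 10.5 FPM (4.37; 3.85 to 4.94). In the cone set Elf5 was at 37.0 FPM, and the ratio of ExE nuclei to it was 1.24 (0.926 to 1.68). The 7 together had a ratio over the cone set of 2.06 (1.77 to 2.42). Over the other nuclei, Nat8l followed Elf5 at 2.69 (2.39 to 3.03), Esrrb at 2.43 (2.10 to 2.79) and Duox2 at 2.41 (2.10 to 2.74). Sox21 was at 1.87 (1.66 to 2.09), Htra1 at 1.72 (1.48 to 1.99) and Nr0b1, with 79 ExE fragments, at 1.48 (1.16 to 1.87). Each promoter ratio was well below the RNA ratio of the same gene. The nuclei were chosen on the RNA of these genes, which raises the RNA ratios, so the gap does not compare the 2 assays. Promoters of the 3 subtracted genes together had a ratio of 0.985 (0.876 to 1.10) over the other nuclei. Among them Gjb5 was at 2.72 (2.22 to 3.31), Ascl2 at 0.746 (0.634 to 0.872) and Plac1 at 0.596 (0.408 to 0.843).

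Starts of 1 gene could differ. At the downstream Elf5 start printed above, ExE nuclei had 228 fragments (32.6 FPM against 4.06 FPM; ratio 8.01; 6.82 to 9.40), and at the upstream start 45 fragments (3.17; 2.25 to 4.37). The ectoplacental cone set had 18.8 FPM and 9.41 FPM at these starts, where ExE nuclei had 32.6 FPM and 6.43 FPM. For Esrrb, the peak at the upstream start had 3 ExE fragments (0.157; 0.0321 to 0.462) and the second RefSeq start 49 (0.593; 0.436 to 0.788), while the peaks at chr12:86469667-86470533 and chr12:86470891-86471737, by the highest listed start, had ratios of 3.02 (2.49 to 3.63) and 3.03 (2.39 to 3.79). For Dnmt3l, the middle RefSeq start had 17.7 FPM against 4.37 FPM (4.06; 3.31 to 4.94), and the last start had a ratio of 1.09 (0.648 to 1.74). At Bmp4, the peak over the RefSeq start had a ratio of 2.16 (1.85 to 2.51) and a second peak at chr14:46391488-46392290 one of 6.68 (5.87 to 7.58). At Zfp42, the peak at chr8:43305438-43306194, on the gene's side of the start, had a ratio of 10.2 (8.27 to 12.4), against 2.91 (2.48 to 3.40) at the start itself.

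Promoters of the 14 stem cell factors were together only 1.19-fold more accessible (1.15 to 1.23). Zfp42 was the 1 factor past 2-fold, at 4.29 (3.80 to 4.84), and Tfap2a was below 0.5, at 0.439 (0.357 to 0.533). The Zfp42 promoter was at 49.0 FPM in ExE nuclei and 38.3 FPM in the cone set (1.28; 0.964 to 1.72). Cdx2 and Gata3, whose RNA ratios were 6.54 and 5.85, had promoter ratios of 0.867 (0.738 to 1.01) and 0.980 (0.883 to 1.09). Klf5 was at 1.28 (1.16 to 1.42) and Sox3 at 1.11 (0.927 to 1.31). In the exchange list, Bmp4 was at 3.79 (3.44 to 4.16) and Bmp8b at 2.31 (2.02 to 2.62), Wnt7b at 0.881 (0.735 to 1.05), and Fgf5, Wnt3 and Nodal at 0.249, 0.436 and 0.496. Cldn4 was at 3.73 (3.33 to 4.17), with 54.0 FPM in ExE nuclei and 59.1 FPM in the cone set (ratio 0.913; 0.722 to 1.16). Duox2 and Duoxa2 start beside each other and shared 1 promoter peak, so their accessibility is 1 value.

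The Gcm1 promoter was 2.45-fold more accessible (2.001 to 2.97), with 118 fragments in ExE nuclei, although its RNA was at 1.27 CPM. Sfmbt2 was the reverse, with RNA at 1403 CPM and a promoter ratio of 1.12 (0.966 to 1.29). Of the visceral endoderm promoters, 7 of 8 were at least 2-fold less accessible, and Cubn, which encodes an endocytic receptor, had 1 fragment in ExE nuclei (0.0241; 0.000608 to 0.134). Cubn RNA was at 131 CPM in the same nuclei and 7418 CPM in the visceral endoderm set.

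**Figure D2:**
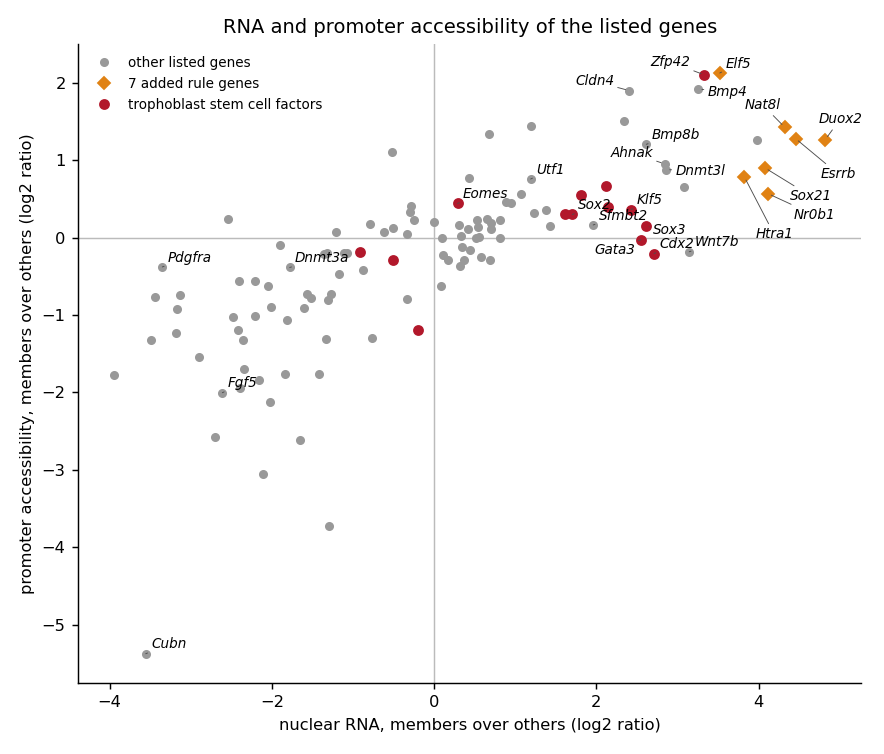
Log2 ratio of nuclear RNA (x axis) and of promoter accessibility (y axis), ExE over other nuclei, for listed genes with at least 200 UMIs and 200 fragments and for the 7 added score genes. Elf5, Zfp42 and Bmp4 lie high on both axes, whereas Cdx2, Gata3 and Sox3 lie to the right with promoter ratios near 1, and Cubn lies at the lower left. The choice of nuclei raises the RNA ratios of the 7 added score genes.

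Across all 13440 genes tested in both assays, 83 of the 737 with RNA at least 2-fold higher (11.3%) had a promoter at least 2-fold more accessible, against 1.13% of all. The median promoter ratio was 1.22 for genes higher in RNA, 0.651 for genes lower in RNA and 1.04 for all. A promoter ratio below 1 accompanied higher RNA in 154 genes (20.9%). Among the 14 genes with the highest RNA ratios outside the lists, Dppa4 had a promoter ratio of 9.88 (6.88 to 14.1) on 52 ExE fragments, below the minimum of 200 fragments in all, Dppa2 8.56 (7.20 to 10.1), Cldn3 3.12 (2.87 to 3.39) and Tinagl1 2.80 (2.56 to 3.06), while Casz1 was at 0.906 and Plut at 0.631. Over the cone set, the promoter ratios of Dppa4, Dppa2, Cldn3 and Tinagl1 were 3.68 (1.19 to 18.4), 3.96 (2.17 to 8.06), 1.12 (0.930 to 1.37) and 1.53 (1.21 to 1.96).

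The highest promoter ratios of all belonged in part to genes without RNA. Traj52 and Traj51, T cell receptor joining segments that share 1 peak, had no UMI in any nucleus in range and a ratio of 14.97 (11.99 to 18.7), and the olfactory receptor gene Olfr1252 had none and 14.6 (11.1 to 19.2). Tmem274, also without ExE UMIs, was at 7.51. Nlrc3, an inhibitory NOD-like receptor gene, had 616 fragments in ExE nuclei (88.0 FPM against 8.15 FPM; 10.8; 9.74 to 11.95) and an RNA ratio of 2.87. Zfp936, Zfp977, Slc16a5 and AU018091 had promoter ratios of 7.02 to 7.86 and RNA ratios of 4.19 to 7.78, of which that of Slc16a5 rested on fewer than 200 UMIs. Over the cone set these promoter ratios were 1.94 (1.20 to 3.29), 1.03 (0.677 to 1.62), 2.21 (1.53 to 3.31) and 0.667 (0.455 to 0.9997), in that order. The RNA ratios of these 4 genes over the cone set were 1.30 (1.005 to 1.71), 1.79 (1.15 to 2.92), 7.09 (1.20 to 287) and 0.915 (0.768 to 1.10). Among the highest promoters, 40 gene models without a descriptive symbol were passed over before these 10 were reached.

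Base composition and short motifs were read in RefSeq promoters (300 bases, 250 of them upstream), of which 17292 met the fragment minimum. Of these, 434 were at least 2-fold more accessible in ExE nuclei and had a median of 5 CpG dinucleotides, compared with 19 over all those tested and 7 in the 2548 at least 2-fold less accessible. The TEAD motif GGAATG, on either strand, was in 23.5% of the more accessible promoters, 16.4% of the less accessible, 12.4% of those tested and 14.7% of all 32851. Among promoters with at most 10 CpG, it was in 93 of 356 more accessible promoters (26.1%) and 18.1% of 4579 tested. The SOX motif ACAATG was in 13.6%, 10.8%, 7.59% and 12.6% in the same order, and at most 10 CpG in 15.4% and 12.7%.

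The ETS motif CCGGAAG was in 8.99% of more accessible promoters, 3.45% of less accessible and 14.9% of those tested, the AP-2 motif GCCNNNGGC in 15.7%, 14.6% and 24.7%, and the GATA motif AGATAA in 10.4%, 12.6% and 6.63%. Held to at most 10 CpG, more accessible and all tested promoters had the ETS motif in 8.15% and 5.13%, the AP-2 motif in 13.8% and 11.2% and the GATA motif in 10.7% and 13.9%. The ESRRB motif TCAAGGTCA was in 0 of 434 and in 0.214% of those tested. In the printed sequences, counting from 1 at the 5′ end, the upstream Elf5 start had a SOX match at bases 44 to 49 and a TEAD match at 78 to 83. Zfp42 had an AP-2 match at 151 to 159 and a TEAD match at 206 to 211, and Bmp4 an ETS match at 155 to 161. The other 4 held none of the 6 motifs.

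Distal peaks, those at no promoter, were more unequal. Of 161746 with at least 100 fragments, 9052 (5.60%) were at least 4-fold more accessible in ExE nuclei, with a median ratio of 0.618. Within 50 kb of a listed start, 11 of 44 such peaks of Esrrb were at least 4-fold more accessible, 7 of 11 of Zfp42, 4 of 8 of Nat8l, 6 of 13 of Pcsk6, 7 of 19 of Klf5, 7 of 19 of Cldn4 and 5 of 16 of Elf5. All 7 genes added in the score had at least 1. Of the subtracted genes, Gjb5 had 5 of 20, Ascl2 1 of 18 and Plac1 none of 14. Tead4 had 6 of 29, Wnt7b 6 of 25, Gata3 3 of 17 and Id2 3 of 19. Cdx2 had 1 of 24, and Sox2 and Sox3 had none of 19 and none of 9.

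The most unequal peak near Elf5, at chr2:103425915-103426795 and 2229 bp from a listed start, had 323 fragments in ExE nuclei (46.1 FPM against 2.71 FPM; 17.0; 14.5 to 19.9) and 6.72 FPM in the ectoplacental cone set. The one near Htra1, at chr7:130945633-130946326, was at 45.1 FPM against 2.56 FPM (17.6; 15.01 to 20.7). Near Esrrb, chr12:86462762-86463605 was at 22.0 FPM against 1.22 FPM (18.0; 14.2 to 22.7) and 0.672 FPM in the cone set. Near Id2, chr12:25114408-25115306 was at 55.3 FPM against 3.32 FPM (16.6; 14.4 to 19.2). The 1 peak near Cdx2 past 4-fold, chr5:147297486-147298285, was at 34.3 FPM against 2.75 FPM (12.4; 10.5 to 14.8) and, unlike those, stood at 24.9 FPM in the cone set.

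**Figure D3:**
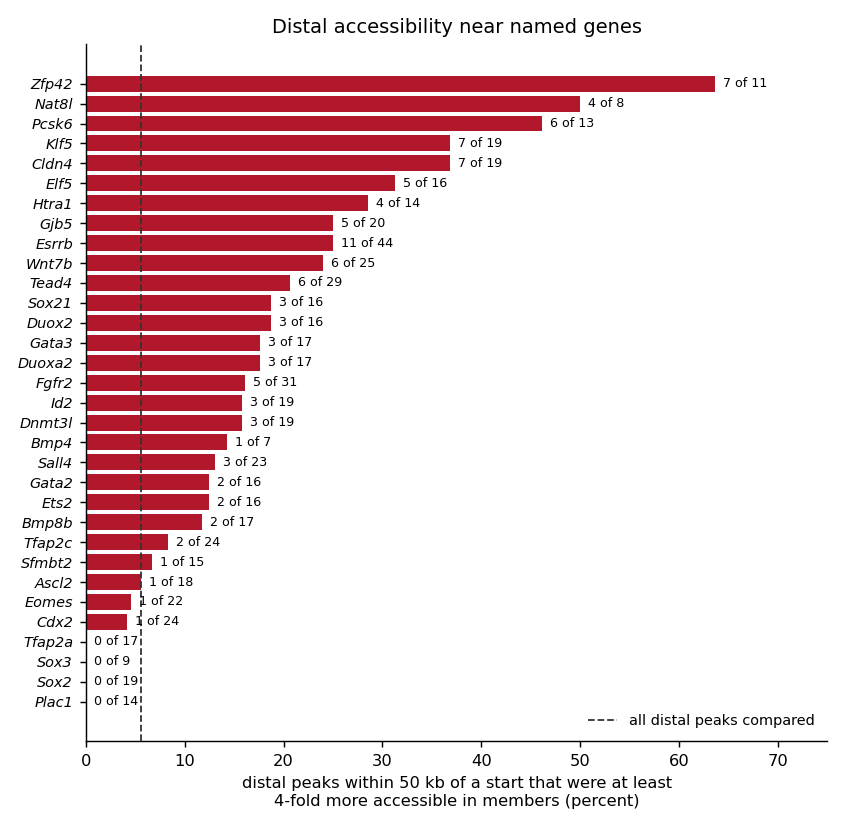
Percent of distal peaks within 50 kb of a listed start that were at least 4-fold more accessible in ExE than in other nuclei, for genes with at least 5 such peaks; labels give the counts and the dashed line the share over all distal peaks (5.60%). Zfp42 leads with 7 of 11, and Sox2, Sox3, Tfap2a and Plac1 have none.

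The 8 distal peaks with the highest ratios in the genome ran from 27.1 to 36.6 and had 0 to 1.34 FPM in the ectoplacental cone set. The highest was chr8:66825091-66825860, 34741 bp from a start of Naf1, with 80 ExE fragments (11.4 FPM against 0.313 FPM; 36.6; 24.5 to 55.5). The peak with most fragments among them, chr14:68020337-68021221, had 274 (39.1 FPM against 1.44 FPM; 27.3; 22.4 to 33.2) and lay 63084 bp from a start of Nefl. The others were chr4:84751119-84751931, chr4:120517217-120518074, chr11:118787918-118788813, chr15:67471704-67472588, chr2:134544654-134545715 and chr4:140316019-140316643. Distances to a gene start do not show which gene a peak serves.

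Clustering on accessibility alone placed 688 of the 700 ExE nuclei (98.3%; 97.0 to 99.1) in 3 of 17 clusters, here called A, B and C. The same 3 clusters held 871 other nuclei (7.99%; 7.49 to 8.51). Cluster A had 356 ExE nuclei among 509, B 188 among 421 and C 144 among 629. Cluster C also held 128 of the 150 nuclei of the ectoplacental cone set, A held none and B 3. Clusters in which at least 50% of nuclei were ExE nuclei, which is A alone, held 50.9% (47.1 to 54.6). At resolution 0.5 a single cluster of 1378 held 684 ExE nuclei (97.7%), which were 49.6% of it, so the share in such clusters became 0.

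The accessibility of the 7 score gene promoters was followed down the RNA ranking. It was 258 FPM in ranks 1 to 100 (227 to 292) and 241 FPM in ranks 601 to 700 (212 to 273), then 214 FPM in ranks 701 to 800 and 123 FPM in ranks 1101 to 1200, and 102 FPM (100.2 to 104) beyond rank 2000. Nuclei in clusters A, B and C numbered 97 to 100 per bin of 100 among ExE nuclei, 95 in ranks 701 to 800, 80 in ranks 901 to 1000 and 38 in ranks 1101 to 1200. Neither measure had a step at rank 700.

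**Figure D4:**
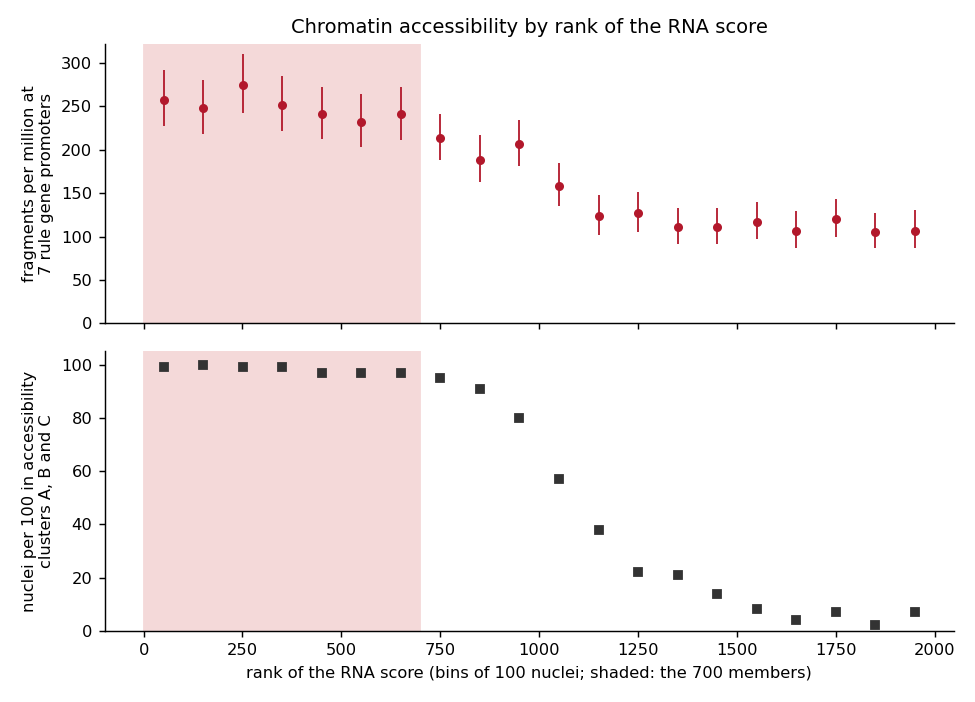
Top, fragments per 1000000 at the promoters of the 7 added score genes with exact 95% counting intervals; bottom, nuclei in accessibility clusters A, B and C per bin of 100; both by rank of the RNA score, with the 700 ExE nuclei shaded. Both stay level to rank 700 and decline between ranks 700 and 1300, from 214 to 127 FPM and from 95 to 22 nuclei.

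Within the ExE nuclei, RNA was compared between clusters A, B and C over 7398 genes with at least 200 UMIs. Against the ExE nuclei of the other 2 clusters, 2 genes were at least 2-fold higher and 5 lower in A, 26 higher and none lower in B, and 1 higher and 60 lower in C. Of the 7 added score genes, 6 had ratios of 0.860 to 1.18 in every cluster, and Sox21 was lower in C. All these nuclei were chosen by a score of these genes, so similar levels follow in part from the choice. Elf5 was at 233 CPM, 234 CPM and 237 CPM in A, B and C, and Esrrb at 238 CPM, 209 CPM and 225 CPM. Zfp42 was at 189 CPM, 167 CPM and 181 CPM.

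Sox3, which the score did not use, was at 110 CPM in A, 85.0 CPM in B and 15.2 CPM in C. Its ratio in C to A and B together was 0.149 (0.1005 to 0.213). Sox2 did not follow Sox3, at 132 CPM, 107 CPM and 139 CPM. Besides Sox3, the lowest genes in C were Robo1 (a Slit receptor, 0.183), Tenm4 (a teneurin, 0.191), Pcdh7 (a protocadherin, 0.202) and Efna5 (an ephrin ligand, 0.221). Efna5 was at 21.1 CPM in A, 70.5 CPM in B and 8.32 CPM in C. Of 8 visceral endoderm markers, 4 had intervals below 1 in C and 4 spanned 1 (ratios 0.490 to 0.959). Of 8 epiblast markers, 2 were below and 6 spanned 1 (0.602 to 1.09), and of 6 embryonic mesoderm markers 2 were below and 4 spanned 1 (0.438 to 1.23). The share of all compared genes with such intervals is not given here, so these counts have no background beside them. The part of these markers in the ratios of C was not tested. Bmp4 was lower in C, at 166 CPM against 232 CPM in A (ratio to A and B 0.737; 0.654 to 0.828), as was Sox21 (0.748; 0.614 to 0.905). Higher in C were Ahnak, at 323 CPM against 216 CPM in A (1.46; 1.34 to 1.60), and Bmp8b (1.37; 1.17 to 1.59). Some genes with high levels in the cone set were also higher in C, among them Krt18 (1.48; 1.35 to 1.61), Krt8 (1.38; 1.24 to 1.53), Hand1 (1.33; 1.001 to 1.75) and Phlda2 (1.24; 1.13 to 1.37). Others were not, among them Tfap2c (0.898; 0.784 to 1.02) and Cebpb (0.817; 0.608 to 1.08), at 682 CPM and 234 CPM in the cone set. The imprinted gene Peg3, at 585 CPM there, was lower in C (0.865; 0.791 to 0.944). Cluster C is the one that also holds most of the ectoplacental cone set, where Sox3 was at 10.2 CPM and Bmp4 at 14.8 CPM.

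Cluster B differed in quality. Its ExE nuclei had a median of 4189 fragments, against 11782 in A and 9490 in C, at similar UMIs (13141, 14017 and 13986.5). Scrublet called 16.5% of them, against 3.65% in A and 0.694% in C. Its highest genes were Sema6a (4.60), Dab1 (4.34), Efna5 (4.01), Cubn (3.78; 3.38 to 4.22), Gpc6 (3.08) and Gpc3 (3.002). Cubn, a visceral endoderm marker, was at 284 CPM in B and 76.7 CPM in A. In B, 7 of 8 visceral endoderm markers had intervals above 1 and 1 spanned 1 (ratios 0.966 to 3.78), and their summed level was 977 CPM, against 601 CPM in A and 569.9 CPM in C. Of 8 epiblast markers, 5 were above and 3 spanned 1 (1.02 to 2.25), with sums of 712 CPM in B, 624 CPM in A and 635 CPM in C. Of 6 embryonic mesoderm markers, 2 were above and 4 spanned 1 (0.961 to 2.001). For B too, the share of all compared genes with such intervals is not given here. The part of doublets and of RNA from other cells in these ratios was not tested.

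**Figure D5:**
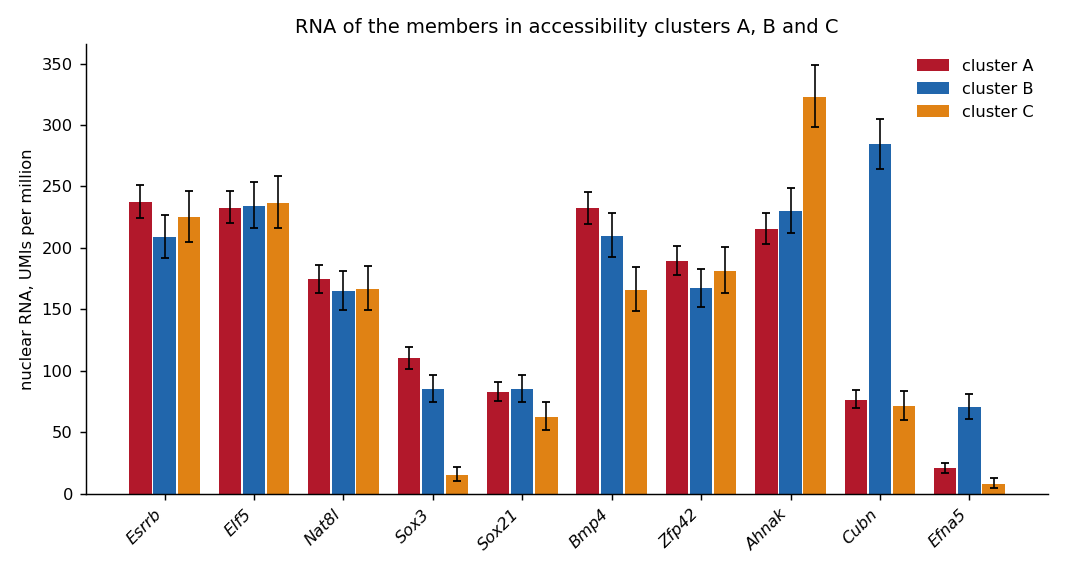
Nuclear RNA in UMIs per 1000000 of 10 genes in the ExE nuclei of accessibility clusters A (356 nuclei), B (188) and C (144); bars are sums over nuclei and lines exact 95% counting intervals. Esrrb, Elf5 and Nat8l are near level, which the choice of nuclei by these genes favours. Sox3 is lowest in C (15.2 CPM), Ahnak highest in C, and Cubn and Efna5 highest in B.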

How the data were processed

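Mouse E7.0 nuclei had been taken through droplet RNA and accessibility profiling, with 1 library per assay. Both kinds of value were raw counts as the authors deposited them, UMI counts per gene and counts per peak; per the file headers the matrix came from Cell Ranger ARC 2.0.0, and per the submitters' processing notes the build was mm10. Of the nonzero peak counts 86.4% were even, so fragments were estimated as the count divided by 2, rounded up. Counts were summed per set of nuclei and scaled to 1000000; a ratio has an exact conditional binomial interval, a share a Clopper-Pearson interval, and a level an exact Poisson interval. These cover counting error at the stated depths, and cells were not treated as replicates. Minimums were 200 UMIs, 200 promoter fragments and 100 distal fragments over all nuclei in range.

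Doublets were called with Scrublet in scanpy 1.11.5 at a rate of 0.1 and kept. Peaks were clustered after TF-IDF on 30 singular vectors (the first dropped), with 15 neighbours and leidenalg 0.10.2 at resolution 1 and seed 0; 162727 peaks entered. The ratio calculation was tested on simulated data. Of the 7 added genes, 6 matched a RefSeq promoter row. Members and gene lists were chosen with earlier results of these data known. Named in each list were the largest and smallest ratio and genes of known role; outside the lists, the 14 highest and 10 lowest RNA ratios, 10 highest promoter ratios and 8 highest distal ratios, with gene models passed over. Some genes that these rules name are not reported here. Genes named for clusters A, B and C, single peaks and starts were chosen after their values were seen. Alternatives changed the depth range, doublets, the number of nuclei, the score, filters, scaling, promoter window and clustering.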

Additional observations from a re-analysis of the deposited data

Results flagged for a closer look

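Of the 3736 barcodes outside the depth range, which no comparison used, 165 (4.42%; exact binomial 95% interval 3.78 to 5.13) scored at or above the last ExE nucleus. They drew attention because the same RNA signal appeared in nuclei that were left out. Of the 165, 63 had more than 30000 UMIs, 22 fewer than 3000 UMIs, and 80 too few peak counts.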

How the results depend on the processing

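Of 70 alternatives for the counts and summed ratios, 56 stayed within 1.5 times the count or within the counting interval of the value, and 14 did not. The share of ExE nuclei in clusters with a majority of them, 50.9%, was the least stable: 72.0% with at least 1000 UMIs and 1000 peak counts, 76.0% without doublet calls, 72.9% with 1000 nuclei, 46.6% with scores from thinned nuclei and 70.6% at resolution 2, and 0 with 400 nuclei or at resolution 0.5. Without a UMI minimum, 2451 genes were at least 2-fold higher and 10758 lower, since more genes of few UMIs were compared, and with a minimum of 20 fragments 755 promoters were at least 2-fold more accessible. The ratio of the 7 score gene promoters was 2.16 with scores from thinned nuclei, 2.59 with a 2000 bp window and, chosen after seeing the data, 2.49 against others outside clusters A, B and C. The stem cell factor promoters were at 1.13 with a 2000 bp window. Every alternative kept the promoter sums above 1. The cause of these shifts was not tested. Restricting the ExE nuclei to clusters A, B and C, also chosen after seeing the data, moved none of the 6 values recomputed by that much. With 1 library per assay no replicate could be left out. No paired analysis was possible because each assay has 1 library.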
